A study of Homo sapiens with 6 samples.

Results

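The mitochondrial ribosomal protein genes were followed in human TYK-nu cells, an established line given by the labels as ovarian cancer. Their members were the protein-coding gene rows whose current symbol begins with MRPL or MRPS and a number, with at least 10 reads in at least 3 libraries. All 77 such rows passed this minimum, out of 62260 gene rows per file, and all 77 were among the 14166 genes tested. The row that older tables call MRPS36 was left out, because its current symbol is KGD4 and its protein belongs to the 2-oxoglutarate dehydrogenase complex. The study compared 3 wild-type (WT) libraries with 3 libraries of TYK-nu cells in which ZNFX1, an RNA helicase-like gene, had been knocked out (ZNFX1 KO, here KO). Both groups were untreated, grown in the same medium and placed in batch 1 by the labels. The labels call the libraries biological replicates and name neither the knockout method nor a second KO line, so an effect of ZNFX1 loss and other differences between the lines cannot be told apart. Separate cultures are not described, so a p-value here refers to the spread among these 6 libraries, which may be technical.

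Mitochondria translate their own small set of mRNAs, all for subunits of the oxidative phosphorylation machinery, on a ribosome of their own. The RNA of this ribosome comes from mitochondrial DNA, whereas its proteins are encoded in the nucleus, made in the cytosol and imported. Many of its proteins descend from those of the bacterial ribosome, and others joined only in mitochondria; inherited faults in either kind impair respiration. By the known structure, 51 of the 77 genes encode proteins of the large subunit, which joins amino acids, and 26 encode proteins of the small subunit, which reads the mRNA. The large-subunit genes include MRPS30 and MRPS18A despite their names. Of the large-subunit proteins 30 have a bacterial homologue and 21 are specific to mitochondria. Of the small-subunit proteins 16 have a homologue and 10 are specific to mitochondria. MRPS18A and MRPS18B are counted as specific, following the nomenclature of the ribosome's structure, although their sequences resemble a bacterial protein.

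The libraries held between 21413002 and 23494771 assigned fragments, and a member had between 70.7 and 4746 reads in a library. ZNFX1 mRNA was at 149 ± 52.2 CPM (read counts scaled to the size of the library) in WT against 82.8 ± 17.3 in KO cells (SD, n = 3 each), with every KO library below every WT library. Its log2 fold change of -0.85 (SE 0.27) did not pass the threshold (edgeR, adjusted p = 0.218). The mRNA level only partly checks the labels, since a small deletion can leave the transcript in place. Of 8 ovarian and epithelial markers, PAX8, KRT7, MUC16 and CDH1 were under 1 CPM in all libraries, while KRT18 was at 103 ± 18.0 CPM in WT. Of 8 leukocyte markers only CD68 and LYZ reached 1 CPM, and all 6 fibroblast markers stayed under it. All 4 endothelial markers were present (summed 735 to 1216 CPM in WT and 932 to 1057 in the KO). Since these are bulk samples, fewer cells of a type and less RNA per cell cannot be told apart. WT 2 stood apart: 20 cell division genes had a median of -1.35 there on the log2 scale relative to the mean of the 6 libraries, against -0.28 in WT 1, 0.39 in WT 3 and 0.36 to 0.44 in the KO, and 18 interferon-stimulated genes had a median of 1.73 there, against -0.78 to 0.06 elsewhere.

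The promoters of 4 members are shown because their libraries separated the genotypes and they had the smallest p-values of the family: MRPL33, MRPL17 and MRPL52, which stood higher in the KO, and MRPL49, which stood lower. Each run is the RefSeq promoter window (GRCh38.p14) from 250 bases before to 50 bases after the start, 5′ to 3′ along the gene. Capitals mark matches, on either strand, to the letters GCGCANGCG, a core of the site of NRF1, a regulator of nuclear genes for mitochondria, or to CCGGAAG, a core of the site of ETS factors such as GABPA.

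MRPL33, chr2:27771469-27771768, plus strand: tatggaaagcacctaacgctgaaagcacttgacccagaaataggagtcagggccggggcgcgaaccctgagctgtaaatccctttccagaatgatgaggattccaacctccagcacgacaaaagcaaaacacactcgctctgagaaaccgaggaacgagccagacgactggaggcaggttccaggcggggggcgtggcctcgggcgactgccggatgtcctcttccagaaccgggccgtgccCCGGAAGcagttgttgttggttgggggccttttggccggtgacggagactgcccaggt

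MRPL17, chr11:6683291-6683590, minus strand: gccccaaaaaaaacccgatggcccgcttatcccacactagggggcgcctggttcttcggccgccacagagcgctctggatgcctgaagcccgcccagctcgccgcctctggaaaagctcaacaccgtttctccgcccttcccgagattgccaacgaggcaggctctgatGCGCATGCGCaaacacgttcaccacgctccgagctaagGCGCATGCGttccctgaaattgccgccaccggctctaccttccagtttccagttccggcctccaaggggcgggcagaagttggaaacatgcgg

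MRPL52, chr14:22829637-22829936, plus strand: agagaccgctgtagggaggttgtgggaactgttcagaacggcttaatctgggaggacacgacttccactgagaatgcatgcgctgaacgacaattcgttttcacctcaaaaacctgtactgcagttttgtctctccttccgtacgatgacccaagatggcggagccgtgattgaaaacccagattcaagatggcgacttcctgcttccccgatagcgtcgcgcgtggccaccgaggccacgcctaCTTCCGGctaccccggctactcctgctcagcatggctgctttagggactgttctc

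MRPL49, chr11:65121933-65122232, plus strand: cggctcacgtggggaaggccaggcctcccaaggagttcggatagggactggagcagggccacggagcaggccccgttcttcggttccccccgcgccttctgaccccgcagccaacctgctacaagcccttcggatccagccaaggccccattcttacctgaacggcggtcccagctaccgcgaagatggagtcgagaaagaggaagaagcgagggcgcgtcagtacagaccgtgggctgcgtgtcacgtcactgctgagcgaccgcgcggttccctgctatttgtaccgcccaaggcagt

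The MRPL17 window held overlapping matches and a further match to the NRF1 letters, those of MRPL33 and MRPL52 a match each to the ETS letters close to the start, and that of MRPL49 none. Promoter windows were found for 69 of the 77 members. The ETS letters lay in 29 of these (42.0%), against 14.2% of 15842 promoters of protein-coding genes, and the NRF1 letters in 13 (18.8%), against 11.0%. Neither was in 31 of the 69 member windows (44.9%), against 77.1% of all. The 15842 promoters were taken whatever the level of their genes in these cells, whereas all members passed the read minimum. The median log2 fold change (KO against WT) was 0.22 for members with and 0.17 for members without the ETS letters, and 0.13 with and 0.24 without the NRF1 letters. The differences between these medians were not tested. A match here is a description of the letters and not of a bound factor.

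None of the 77 members passed the threshold, an adjusted p of 0.05 over all genes tested: 0 rose and 0 fell (edgeR quasi-likelihood test, smallest adjusted p = 0.189, MRPL33), where 0.727% of all genes tested were called. DESeq2 and limma-voom likewise called 0 members, where they called 4.09% and 0.536% of all genes. In each, 7 members had an unadjusted p under 0.05, as did 15.8% of all genes in DESeq2 and 14.9% in limma-voom. Their values were mostly positive. A log2 fold change above 0 was found for 62 of the 77 (80.5%), against 48.8% of all genes tested, and the median was 0.21, against -0.01 for all genes. Sizes were small. The middle 50% of the members lay between 0.05 and 0.33 (for all genes, between -0.32 and 0.26), 6 exceeded 0.5 in size and 0 reached 1. At an unadjusted p under 0.05, 5 members were higher (5.92% of all genes) and 1 was lower (9.19% of all genes). In 15 members every KO library lay above every WT library, which is 19.5% of them, against 9.39% of all genes; in 1 member, MRPL49, every KO library lay below, against 10.8% of all genes.

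**Figure D1:**
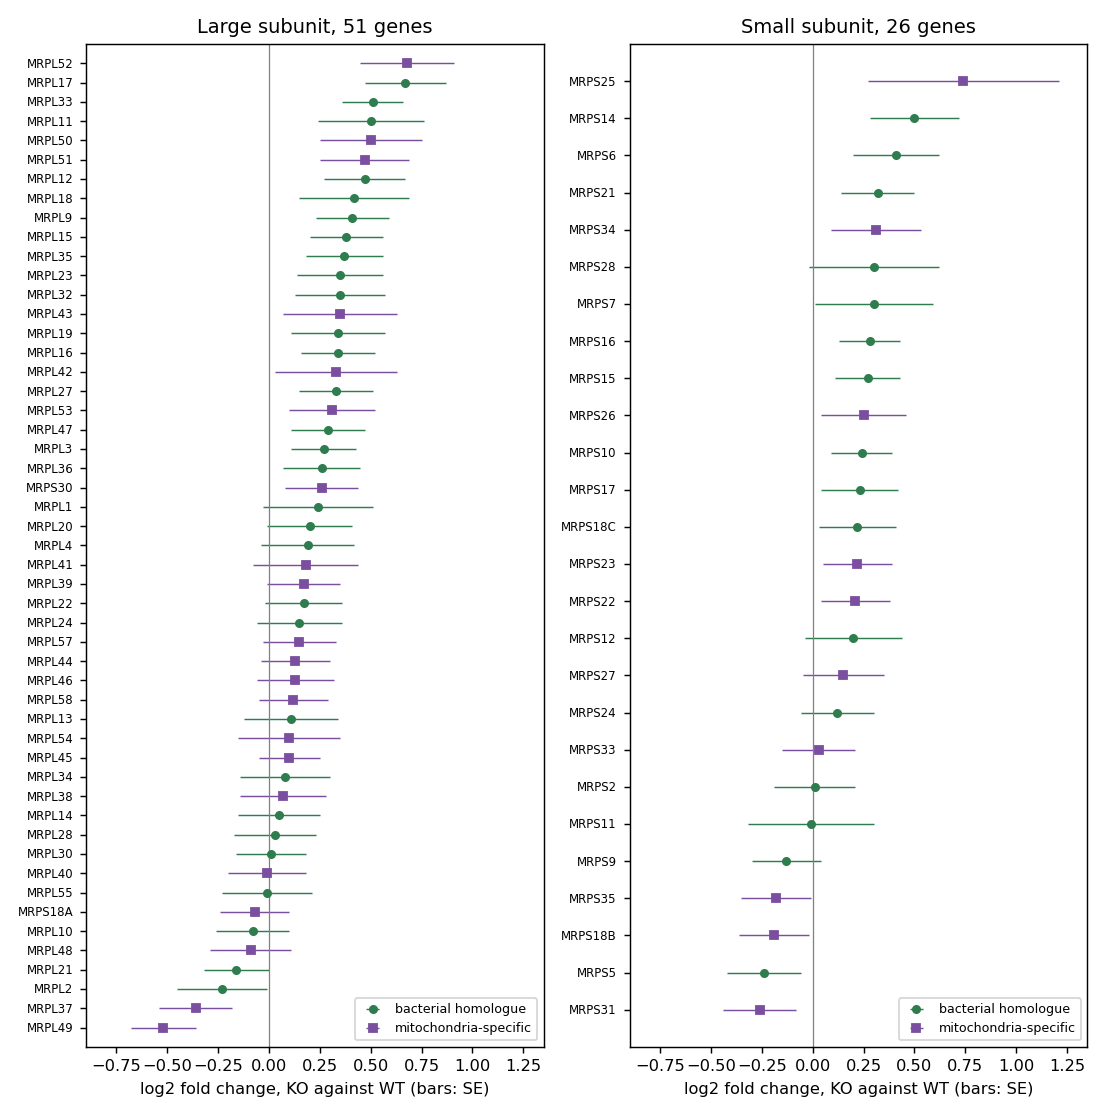
Log2 fold change of each of the 77 genes, KO against WT, with its SE as a bar, for the large subunit (51 genes, left) and the small subunit (26 genes, right); green circles mark proteins with a bacterial homologue and purple squares those specific to mitochondria. Most points lie right of 0, from -0.52 (MRPL49) to 0.74 (MRPS25), and none passed the adjusted threshold.

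The size of this shift depended on single libraries, among them WT 2, WT 3 and KO 2. Added up, the members gave 3099, 2600 and 3455 in WT 1, 2 and 3 and 3635, 3153 and 3556 CPM in KO 1, 2 and 3. The WT mean was 3051 ± 429 and the KO mean 3448 ± 258 CPM (SD, n = 3 each), so the KO stood at 113% of WT, and the groups overlapped because WT 3 exceeded KO 2. WT 2 was the lowest of the 6 libraries for 47 of the 77 members (61.0%), as it was for 27.0% of all genes, and 67 members were below their own mean there. The members' median, relative to the mean of the 6 libraries on the log2 scale, was -0.08 in WT 1, -0.32 in WT 2, 0.10 in WT 3, 0.20 in KO 1, -0.06 in KO 2 and 0.17 in KO 3. Leaving out WT 2 gave the members a median of 0.10, with 56 of 77 positive, and leaving out KO 2 gave a median of 0.29. Without WT 3 it was 0.33, and 4 members passed (edgeR), all higher, where 4.09% of all genes were called as higher. These were MRPL50 at 0.85 (SE 0.18, adjusted p = 0.0331), MRPL51 at 0.74 (SE 0.17, adjusted p = 0.0365), MRPL52 at 0.89 (SE 0.22, adjusted p = 0.0441) and MRPL32 at 0.64 (SE 0.16, adjusted p = 0.0472). Each of these calls therefore depended on a WT library being left out. Some transcripts are listed on rows of their own. The MRPL32 gene row held 55.6%, 68.3% and 75.4% of its reads in WT 1, 2 and 3 and 80.5%, 78.8% and 80.5% in KO 1, 2 and 3. Over all 6 libraries its value was 0.35 (SE 0.22), and 0.11 with its transcript rows added (SE 0.17; edgeR, adjusted p = 0.765). On the opposite strand, exons of PSMA2 (log2 fold change 0.45) overlap those of MRPL32. WT 2 was also the library with the low cell division and high interferon-stimulated genes given above. Their part in the members' values was not tested.

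**Figure D2:**
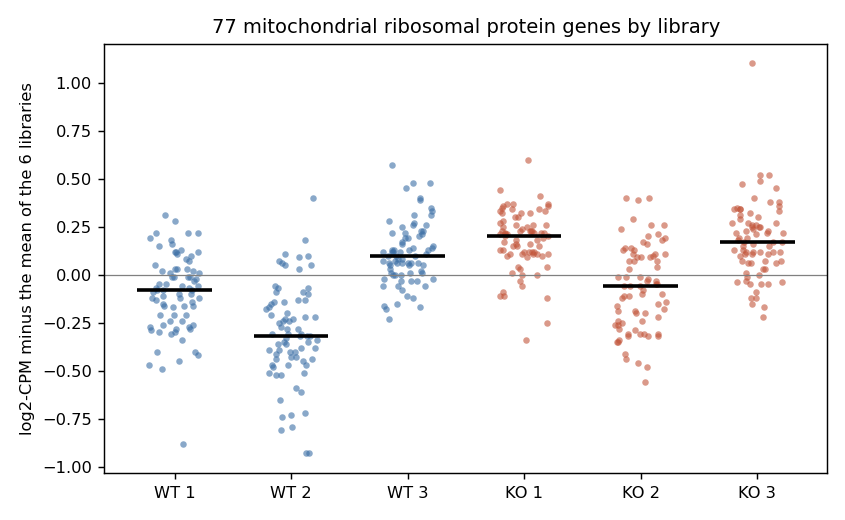
Each point is 1 of the 77 genes, as its log2-CPM in a library minus its mean over the 6 libraries, and black bars are the medians. WT 2 has the lowest median (-0.32), and WT 3 (0.10) lies above KO 2 (-0.06).

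The large and small subunits had the same profile over the libraries. Their medians differed by at most 0.04 in any library, and the median log2 fold change was 0.19 for the large subunit (42 of 51 positive) and 0.22 for the small (20 of 26 positive). Within the large subunit it was 0.26 for the 30 proteins with a bacterial homologue (26 positive) and 0.13 for the 21 specific to mitochondria (16 positive). Within the small subunit it was 0.24 for the 16 with a homologue (13 positive) and 0.18 for the 10 without (7 positive). In 13 of the 46 genes with a homologue every KO library lay above every WT library, and in 2 of the 31 genes without, where 9.39% of all genes tested did so. These are counts over genes and were not tested.

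Among large-subunit proteins with a bacterial homologue, MRPL33 (ENSG00000243147.8, chromosome 2, 27771717 to 27988087, plus strand, GRCh38) separated the groups with the least scatter. It was at 26.5, 28.3 and 28.2 CPM in WT 1, 2 and 3 and at 38.9, 39.6 and 40.0 CPM in KO 1, 2 and 3. No WT library came near a KO library, and the means were 27.7 ± 0.990 and 39.5 ± 0.575 CPM (SD, n = 3 each). The log2 fold change came to 0.51 (SE 0.15; edgeR, adjusted p = 0.189, 0.0597 to 0.510 over the alternatives). Some of its exons overlap those of BABAM2 on the same strand, which had a log2 fold change of -0.40.

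MRPL17 (ENSG00000158042.9, chromosome 11, 6680782 to 6683401, minus strand) was at 14.9, 15.8 and 18.2 CPM in WT 1, 2 and 3 and at 30.8, 20.9 and 25.8 CPM in KO 1, 2 and 3. All KO libraries were higher, KO 2 the least. Its log2 fold change came to 0.67 (SE 0.20; edgeR, adjusted p = 0.198). The files list some transcripts on rows of their own; 50.9% of the MRPL17 reads were in its gene row, and with its transcript rows added the value was 0.55 (SE 0.20).

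MRPL12, the protein of the stalk that recruits translation factors, was at 12.0, 10.5 and 15.0 CPM in WT 1, 2 and 3 and at 15.6, 17.2 and 19.0 CPM in KO 1, 2 and 3. The groups did not overlap, though WT 3 and KO 1 lay side by side. The log2 fold change came to 0.47 (SE 0.20; edgeR, adjusted p = 0.326). MRPL11, at the base of the stalk, averaged 34.1 ± 11.3 CPM in WT against 48.1 ± 7.59 in KO cells (SD, n = 3 each), and here WT 3, at 45.4 CPM, exceeded KO 1, at 42.1 CPM. MRPL15 (log2 fold change 0.38, SE 0.18), MRPL9 (0.41, SE 0.18), MRPL3 (0.27, SE 0.16), MRPL16 (0.34, SE 0.18) and MRPL27 (0.33, SE 0.18) also had all KO libraries above all WT libraries. MRPL2, a protein of the core near the site of peptide bond formation, went the other way, averaging 16.0 ± 2.08 CPM in WT against 13.6 ± 2.94 in KO cells (SD, n = 3 each). MRPL21 was at 45.6 ± 2.07 and 40.8 ± 3.55 CPM. In both the groups overlapped. Exons of MRPL2 overlap those of KLC4 (log2 fold change -1.07) on the opposite strand. With its transcript rows added MRPL2 was at -0.14 (SE 0.21), against -0.23 (SE 0.22) in the gene row.

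**Figure D3:**
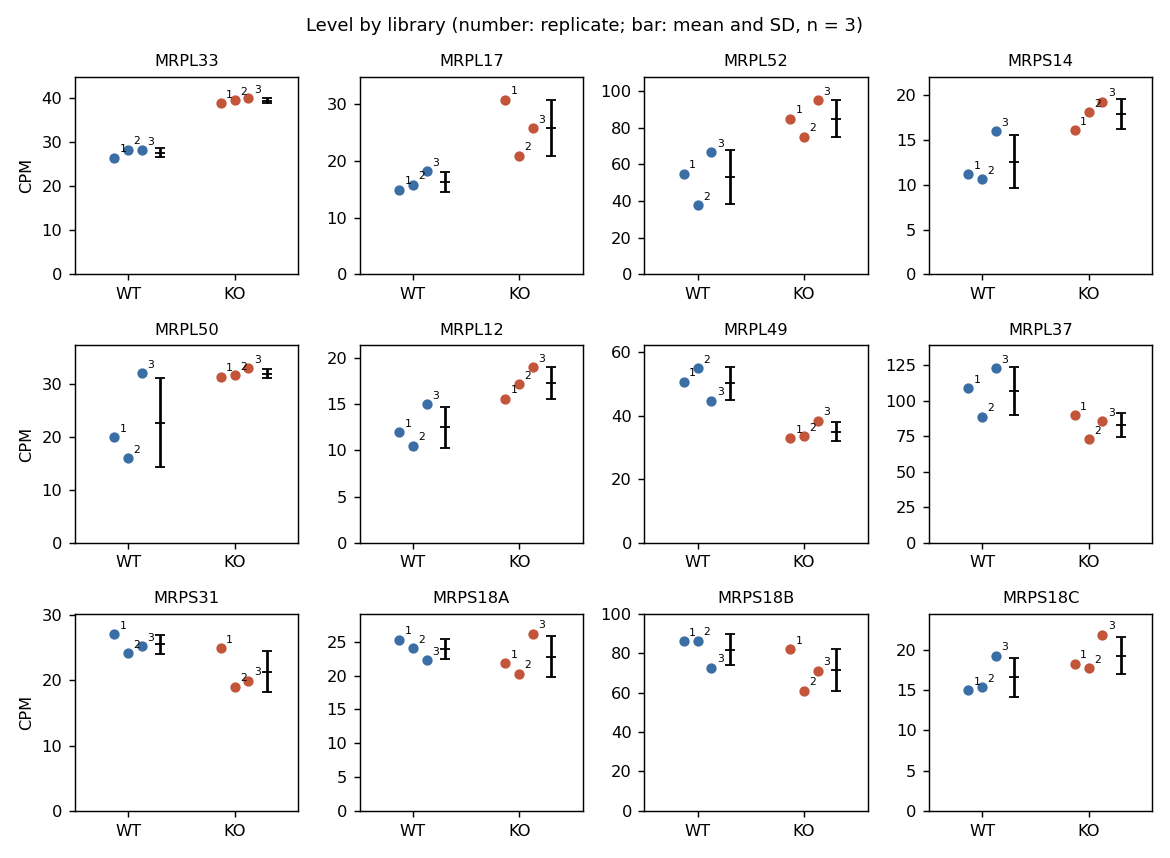
CPM of 12 members in each library, with the replicate number beside each point (blue WT, red KO) and the mean and SD (n = 3) as a black bar; every axis starts at 0. MRPL33, MRPL17, MRPL52, MRPS14 and MRPL12 show KO libraries above all WT libraries, MRPL49 below, and in MRPL50 WT 3 (32.1 CPM) lies among the KO libraries.

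Among large-subunit proteins specific to mitochondria were the family's most abundant member and its lowest fold change. MRPL52 (ENSG00000172590.18, chromosome 14, 22829879 to 22835037, plus strand) was at 54.8, 37.6 and 66.6 CPM in WT 1, 2 and 3 and at 84.8, 75.1 and 94.8 CPM in KO 1, 2 and 3. WT 2 was the lowest library, but the other WT libraries were also below all KO libraries. Its log2 fold change came to 0.68 (SE 0.23; edgeR, adjusted p = 0.236). MRPL49 (ENSG00000149792.9, chromosome 11, 65122183 to 65127371, plus strand) was at 50.6, 54.9 and 44.7 CPM in WT 1, 2 and 3 and at 32.9, 33.4 and 38.4 CPM in KO 1, 2 and 3. It was the only member with all KO libraries below all WT libraries, at -0.52 (SE 0.16, edgeR adjusted p = 0.216, 0.0629 to 0.498 over the alternatives). Exons of MRPL49 overlap those of FAU (log2 fold change -0.12) and SYVN1 (-0.43) on the opposite strand, and with no stated use of strand in the counting such reads cannot be told apart.

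In MRPL50 and MRPL51, WT 3 stood apart from the other WT libraries. MRPL50 was at 20.0, 16.0 and 32.1 CPM in WT 1, 2 and 3, and its KO libraries were at 31.4, 31.7 and 33.0 CPM. MRPL51 was at 53.7, 50.3 and 82.5 CPM in WT 1, 2 and 3 and at 93.3, 78.0 and 86.7 CPM in KO 1, 2 and 3. In both, WT 3 lay within the range of the KO libraries while WT 1 and WT 2 were well below it. The log2 fold changes were 0.50 (SE 0.25, edgeR adjusted p = 0.391) and 0.47 (SE 0.22, edgeR adjusted p = 0.353). Exons of MRPL51 overlap those of NCAPD2, a condensin subunit, on the opposite strand, and NCAPD2 had a log2 fold change of 0.49. MRPL37 had the second lowest value of the family, with 109, 88.9 and 123 CPM in WT 1, 2 and 3 and 90.0, 73.1 and 85.9 CPM in KO 1, 2 and 3 (log2 fold change -0.36, SE 0.18, edgeR adjusted p = 0.380). KO 1 slightly exceeded WT 2 there. On the opposite strand, exons of SSBP3 (log2 fold change -0.18) and CYB5RL (-0.34) overlap those of MRPL37.

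Besides MRPL12, other large-subunit members are known for a role of their own. MRPL45, which lines the exit of the nascent chain at the inner membrane, averaged 30.0 ± 0.833 CPM in WT against 32.3 ± 1.39 in KO cells (SD, n = 3 each). Its KO libraries all lay above its WT libraries, at a log2 fold change of only 0.10 (SE 0.15). MRPL58, a peptidyl-tRNA hydrolase that rescues stalled ribosomes, was at 20.3 ± 2.21 and 22.1 ± 1.52 CPM. The central protuberance proteins MRPL38 and MRPS30 were at 0.07 (SE 0.21) and 0.26 (SE 0.18), and MRPL44, an inherited disease gene, at 0.13 (SE 0.17). In the gene rows, the larger scatter of MRPL54 and MRPL43 was on the KO side. MRPL54 was at 27.1, 14.3 and 25.1 CPM in KO 1, 2 and 3, and MRPL43 at 26.6, 14.3 and 27.6 CPM, so that KO 2 was the lowest of all 6 libraries in each. The gene row of MRPL43 held 72.7%, 76.8% and 96.0% of its reads in WT 1, 2 and 3. In KO 1, 2 and 3 it held 97.2%, 66.1% and 99.0%, so its low KO 2 level leaves out reads on transcript rows. With these rows added, the log2 fold change of MRPL43 was 0.24 (SE 0.18), against 0.35 (SE 0.28) in the gene row. In MRPL42 the scatter came from WT, at 62.2, 32.2 and 76.1 CPM in WT 1, 2 and 3.

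In the small subunit, MRPS14 (ENSG00000120333.4, chromosome 1, 175010789 to 175023425, minus strand) was at 11.2, 10.6 and 16.0 CPM in WT 1, 2 and 3 and at 16.1, 18.1 and 19.3 CPM in KO 1, 2 and 3. The groups just failed to overlap. Its log2 fold change came to 0.50 (SE 0.22; edgeR, adjusted p = 0.322), with 50.9% of its reads in the gene row, and its exons overlap those of CACYBP, at 0.66, on the opposite strand. MRPS6 (0.41, SE 0.21), MRPS16 (0.28, SE 0.15), MRPS15 (0.27, SE 0.16) and MRPS10 (0.24, SE 0.15) also had no overlap between the groups. On the same strand, exons of MRPS16 overlap those of DNAJC9 (log2 fold change 0.77), and exons of MRPS6 those of SLC5A3 (-0.48). MRPS12, a protein of the decoding centre, averaged 24.3 ± 5.02 CPM in WT against 27.9 ± 6.69 in KO cells (SD, n = 3 each). MRPS22, an inherited disease gene, was at 58.7 ± 6.89 and 67.8 ± 7.51 CPM. MRPS31, MRPS5 and MRPS35 had the lowest values of this subunit besides MRPS18B, at -0.26 (SE 0.18), -0.24 (SE 0.18) and -0.18 (SE 0.17). Exons of MRPS5 overlap those of ZNF514 (log2 fold change -0.22) on the same strand. With transcript rows added MRPS5 was at -0.19 (SE 0.16). MRPS31 has 5 pseudogene rows that together held reads equal to 40.3% of its own, so its value is uncertain.

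MRPS25 had the largest fold change of all members in the gene rows, and a smaller one once its transcript rows were joined. The gene row was at 3.74, 3.58 and 10.3 CPM in WT 1, 2 and 3 and at 6.96, 7.61 and 14.9 CPM in KO 1, 2 and 3, with WT 3 above KO 1 and KO 2. The log2 fold change came to 0.74 (SE 0.47; edgeR, adjusted p = 0.477). Exons of MRPS25 (mean 158 reads) overlap those of NR2C2 (mean 1360 reads, log2 fold change -0.23) on the opposite strand. The gene row held 18.9%, 19.1% and 37.9% of the reads of MRPS25 in WT 1, 2 and 3 and 27.3%, 24.9% and 62.2% in KO 1, 2 and 3. With all rows joined the log2 fold change came to 0.29 (SE 0.20; edgeR, adjusted p = 0.474). The gene-row value moved to 1.44 without WT 3, to 0.48 without WT 2 and to 0.32 without KO 3, and in the last case MRPL17 (0.68) and MRPL52 (0.61) were higher. MRPS11, with 28.6% of its reads in the gene row, was at -0.01 (SE 0.31) and joined at -0.04 (SE 0.20), and MRPL15, with 48.2%, was at 0.38 and joined at 0.28 (SE 0.17). For the other 74 members more than 50% of reads were in the gene row, and for 51 members at least 90%. MRPS28, also among the members with the largest scatter in WT, was at 19.6, 14.5 and 33.8 CPM in WT 1, 2 and 3.

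The paralogs MRPS18A, MRPS18B and MRPS18C all resemble the same bacterial small-subunit protein, yet the first sits in the large mitochondrial subunit. MRPS18A was at 25.3, 24.1 and 22.3 CPM in WT 1, 2 and 3 and at 21.8, 20.3 and 26.2 CPM in KO 1, 2 and 3. MRPS18B was at 86.1, 86.4 and 72.7 CPM in WT and at 82.1, 61.0 and 71.2 CPM in the KO, in the same order. MRPS18C was at 15.0, 15.4 and 19.3 CPM in WT and at 18.3, 17.7 and 21.9 CPM in the KO. The groups overlapped in all 3 paralogs. Their log2 fold changes were -0.07 (SE 0.17), -0.19 (SE 0.17) and 0.22 (SE 0.19).

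Levels per length, as TPM (which also allows for transcript length) averaged over the 6 libraries, ran from 127 ± 42.5 for MRPL52 to 3.26 ± 1.18 for MRPS25 (SD over 6 libraries of both genotypes), although the proteins are parts of the same particle. MRPL51 followed at 85.2 ± 25.7, MRPL33 at 71.2 ± 17.7, MRPS24, which sits where mRNA enters, at 69.3 ± 11.3, MRPL24 at 62.7 ± 12.0 and MRPL35 at 54.3 ± 11.2 TPM. Neighbours in this order from MRPL51 downward differed by less than their SD. At the low end, above MRPS25, stood MRPS14 at 5.11 ± 1.55, MRPS11 at 5.56 ± 1.71 and MRPL50 at 5.67 ± 1.93 TPM, which also lie within each other's SD. Of these 4, MRPS25, MRPS11 and MRPS14 had 32.3%, 28.6% and 50.9% of their reads in the gene row, so their listed TPM leaves out the rest. The median over members was 25.8 TPM for the large and 20.3 TPM for the small subunit. Within a genotype a member's log2-CPM had a median SD of 0.22 in WT and 0.17 in the KO.

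**Figure D4:**
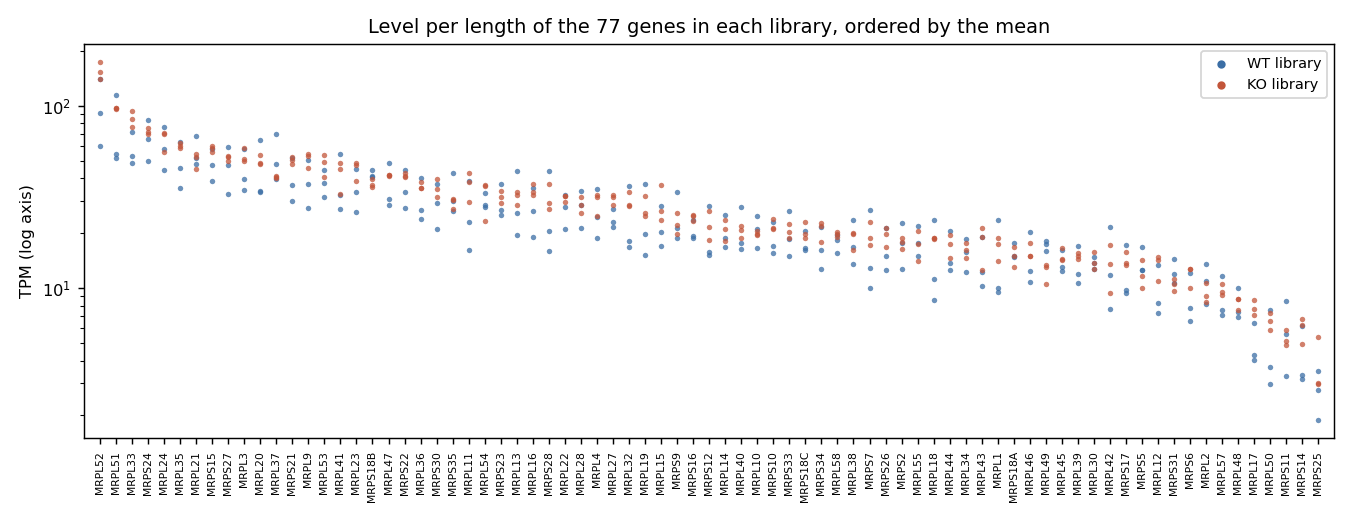
TPM (log axis) of each of the 77 genes in each of the 6 libraries (blue WT, red KO), ordered by the mean. Levels fall from a mean of 127 TPM (MRPL52) to 3.26 TPM (MRPS25), and the library points of most neighbouring genes overlap.

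The other parts of the mitochondrial translation system were read from lists. DESeq2 and limma-voom also called 0 of each list below, except where stated. Of the 5 subunits whose names lie outside the pattern, 0 passed in edgeR, and 0 had an unadjusted p under 0.05. DAP3, a GTP-binding small-subunit protein, averaged 154 ± 16.5 CPM in WT against 189 ± 11.0 in KO cells (SD, n = 3 each). PTCD3 was at a log2 fold change of 0.17 (SE 0.20), CHCHD1 at 0.33 (SE 0.23), GADD45GIP1 at 0.34 (SE 0.21) and AURKAIP1 at -0.16 (SE 0.24). The 28 genes of mitoribosome assembly and rRNA modification had a median of 0.08 (0 rose, 0 fell, 1 higher at an unadjusted p under 0.05, 19 positive), with NGRN at -0.02 (SE 0.16) and RPUSD3 at 0.22 (SE 0.26) the most abundant. MRM2, an rRNA methyltransferase singled out after its values were seen, averaged 12.3 ± 3.64 CPM in WT against 20.0 ± 0.779 in KO cells (SD, n = 3 each; log2 fold change 0.70, SE 0.23, edgeR adjusted p = 0.235).

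The 15 translation factors had a median of 0.15 (0 rose, 0 fell, 1 higher at an unadjusted p under 0.05, 10 positive). SLIRP, which stabilises mitochondrial mRNAs, was at 0.51 (SE 0.28) and the elongation factor TUFM at 0.15 (SE 0.21). OXA1L, the inner membrane insertase that receives new chains and was also singled out afterwards, was at 142, 106 and 118 CPM in WT 1, 2 and 3 and at 181, 154 and 182 CPM in KO 1, 2 and 3, so the groups did not overlap (log2 fold change 0.50, SE 0.18, edgeR adjusted p = 0.261). The 21 tRNA synthetases and charging enzymes had a median of 0.11 (0 rose, 0 fell, 2 higher and 1 lower at an unadjusted p under 0.05, 14 positive). IARS2, the isoleucyl-tRNA synthetase of mitochondria, was at 0.51 (SE 0.19). GATC, a subunit of the amidotransferase that completes glutaminyl-tRNA and likewise looked at afterwards, was at 71.0, 71.7 and 74.8 CPM in WT 1, 2 and 3 and at 52.3, 39.9 and 46.3 CPM in KO 1, 2 and 3. All its KO libraries were lower (log2 fold change -0.65, SE 0.16, edgeR adjusted p = 0.135). DESeq2 called it (adjusted p = 0.0224), as 1 of the 21 genes of this list, where it called 4.09% of all genes.

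RNAs made from mitochondrial DNA had another order among the KO libraries. The rRNAs of the ribosome, MT-RNR1 and MT-RNR2, were at log2 fold changes of 0.04 (SE 0.32) and 0.09 (SE 0.24), and both were highest in KO 2, with MT-RNR2 at 133573 CPM there against 90292 to 106689 elsewhere. The 13 mitochondrial mRNAs had a median of 0.43 (0 rose, 0 fell, 0 at an unadjusted p under 0.05, 13 positive), and by library their median was -0.32 in WT 1, -0.41 in WT 2, 0.34 in WT 3, -0.30 in KO 1, 0.95 in KO 2 and -0.16 in KO 3. Both these mRNAs and the ribosomal protein genes were lowest in WT 2, but in the KO these mRNAs were highest in KO 2, where the ribosomal protein genes were lowest. MT-CO3 and MT-CO1, the most abundant, were at 0.02 (SE 0.28) and 0.23 (SE 0.27). Of 10 regulators of mitochondrial biogenesis 9 were tested, with a median of 0.10 (0 rose, 0 fell, 1 lower at an unadjusted p under 0.05); PPARGC1A had no reads. MYC averaged 195 ± 20.5 CPM in WT against 178 ± 24.1 in KO cells (SD, n = 3 each), and YY1 at 0.15 (SE 0.16).

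Cytoplasmic ribosomal protein genes, a list added after the data were seen, had another profile. Of 77 tested, 0 rose and 0 fell in edgeR (at an unadjusted p under 0.05, 1 was higher and 4 were lower; DESeq2 called RPS4X at -0.71 and RPL36A at -0.76, limma-voom 0), 25 were positive, and the median log2 fold change was -0.06, against 0.21 for the mitochondrial genes. By library their median was 0.19 in WT 1, 0.07 in WT 2, -0.17 in WT 3, 0.18 in KO 1, -0.23 in KO 2 and 0.02 in KO 3, so WT 2 was not low for them. The difference between the families was not tested.

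**Figure D5:**
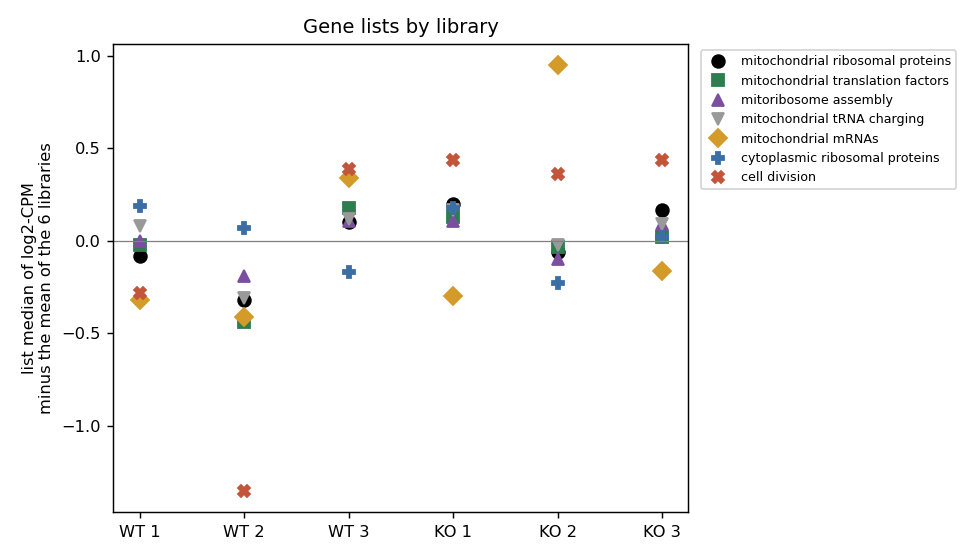
Median of each gene list in each library, as log2-CPM minus the mean of the 6 libraries; each symbol is a list. In WT 2 the mitochondrial ribosomal proteins (-0.32), translation factors (-0.44) and cell division genes (-1.35) are low and the cytoplasmic ribosomal proteins (0.07) are not, and in KO 2 the mitochondrial mRNAs stand at 0.95.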

How the data were processed

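RNA of 6 untreated TYK-nu samples (3 WT, 3 ZNFX1 KO, from the titles) was made into stranded libraries and sequenced, per the labels' protocols. The deposited files hold estimated counts and TPM per row, which the authors computed with Salmon, per the labels' descriptions; FastQC, Trimmomatic and DESeq2 are also named in the submitters' processing notes. Annotation, strand setting and genome build: not given in the sources used here. Each file has 62260 gene rows and 134909 transcript rows that were not joined to a gene (9.93% to 10.7% of fragments); the latter were used only in an alternative. Coordinates and gene types came from GENCODE 29 (GRCh38), symbols from a gene table, and promoter windows from RefSeq. No protein sequences were used here.

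The estimated counts deposited were rounded to integers, filtered by filterByExpr, scaled by TMM (factors 0.958 to 1.04) and tested with edgeR 4.0.16 in R 4.3.3 (quasi-likelihood test, two-sided, genotype only), with p-values adjusted by Benjamini-Hochberg across the 14166 genes tested. The SE is the log2 fold change over the root of F. CPM uses scaled gene-row totals, and log2-CPM a prior count of 2. No library appeared to be deposited more than once (lowest chi-square between libraries 30.3 per degree of freedom). Library alternatives left out each sample in turn; others changed scaling, filter, test, unit, gene set or row joining (DESeq2 1.42.0, limma 3.58.1).

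Members named were, by rule, the 8 highest and 8 lowest fold changes, the 6 most and 4 least abundant, the 3 with the largest SD in each genotype, the MRPS18 paralogs, 8 with a role of their own and those with under 50% of reads in the gene row. Other genes whose libraries separated the genotypes, overlapping neighbours, and the members called without WT 3, were named after their values were seen. Of the other lists the 2 most abundant genes were named, except for a result that is not reported here. The members and lists were chosen with earlier results of these data known.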

Additional observations from a re-analysis of the deposited data

How the results depend on the processing

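The count of members called was 0 in 17 of the 18 alternatives, with the smallest adjusted p among them 0.0597 (DESeq2), and 4 without WT 3, so the leave-one-out range was 0 to 4. The members' median log2 fold change was positive throughout, between 0.14 (library totals) and 0.23 (no filter) over the 12 alternatives that kept all libraries, and between 0.10 (without WT 2) and 0.33 (without WT 3) when a library was left out. Library totals moved the median of all genes to -0.08. The count over all genes moved far more, from 103 to 602 with no filter, 579 with the DESeq2 Wald test, 48 on log2(TPM + 1), 66 on log2(TPM + 0.1) and 187 with joined rows, and from 2 (without ZNFX1 KO 2) to 1315 (without WT 3) when a library was left out; the cause was not tested. Beyond a shared number the labels name no pairing of samples. Correlations of the deviations of same-numbered samples were 0.129, -0.0405 and 0.00691, against -0.096 to 0.0927 for differently numbered ones. With 3 libraries per group these values cannot decide whether samples were paired. With the replicate block 14 genes and 0 members were called. Of 35 named members 31 kept their sign in the 18 alternatives. MRPS11 turned to 0.02 with no filter, 0.03 with limma-voom and with the replicate block, and 0.01, 0.29, 0.13 and 0.04 without WT 1, WT 3, ZNFX1 KO 2 and ZNFX1 KO 3. MRPL38 turned to -0.05 without WT 2 or ZNFX1 KO 1, MRPL54 to -0.07 without ZNFX1 KO 1 and MRPS18A to 0.02 without ZNFX1 KO 2. With a library left out, MRPS11 ranged from -0.25 to 0.29, MRPL38 from -0.05 to 0.24, MRPL54 from -0.07 to 0.35 and MRPS18A from -0.16 to 0.02. Every member had at least 70.7 reads in each library, and a group had 3 libraries.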

Other observations

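Several members share a start region with a gene on the opposite strand. Such a protein-coding neighbour, with starts less than 1000 bases apart, was found for 19 of the 77 members. The 18 neighbours tested, MRPL46 and MRPS11 among them, had a median log2 fold change of 0.10, against -0.01 for all genes tested. Their values ran from -1.09 (PNPLA7, beside MRPL41) to 0.69 (MTBP, beside MRPL13). By edgeR's quasi-likelihood test 0 were called, against 0.727% of all genes. In that test only NDUFS6 (higher) and IGHMBP2 (-0.50, beside MRPL21) had an unadjusted p under 0.05. Of all genes, 5.92% were higher and 9.19% lower at that level. Some neighbours serve mitochondria themselves. NDUFS6, a subunit of respiratory complex I, starts 34 bases from MRPL36 and was at 0.64 (SE 0.26, edgeR adjusted p = 0.305) beside 0.26 for MRPL36, and NDUFB5, another, starts 36 bases from MRPL47 and was at 0.21 (SE 0.21) beside 0.29. MRPL46 and MRPS11 are neighbours of each other, at 0.13 and -0.01. The highest member of the large subunit, MRPL52 at 0.68, lies beside SLC7A7, an amino acid transporter at -0.49 (SE 0.39).

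Pseudogene copies of these genes took few reads. The files list 76 pseudogene rows that carry the names of 35 members, and apart from MRPS31 no member had copies with more than 5% of its own reads (MRPL45 had 2.57%). KGD4, the former MRPS36, averaged 25.8 ± 0.835 CPM in WT against 30.1 ± 4.78 in KO cells (SD, n = 3 each).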
